A study of Mus musculus with 13 samples.

Results

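The mitochondrially encoded transcripts are the 37 genes of the deposited count table whose Ensembl identifier carries a GENCODE mouse symbol beginning with mt-, out of 54532 genes in the table. They comprise 13 protein-coding genes, 22 tRNA genes and 2 rRNA genes on chromosome M of the mouse genome build GRCm38 (16299 bases). In this annotation 28 of them read the forward strand of the reference and are called heavy-strand genes here, following the usual naming. The 9 genes on the other strand, called light-strand genes, are mt-Nd6 and 8 tRNA genes.

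The RNA came from YUMM1.7, a mouse cutaneous melanoma cell line labelled wild type. Cells received DMSO as vehicle, ADAR1i-124 at 10 µM for 12 h, 5-AZA-CdR at 1 µM for 72 h, or both compounds. ADAR1i-124 is a small molecule reported to inhibit the RNA-editing enzyme ADAR1, and 5-AZA-CdR is a DNA methylation inhibitor. The study asked which double-stranded and Z-form RNAs these treatments bring out, and sequenced total RNA and RNA precipitated with J2 (an antibody against double-stranded RNA), Z22 (an antibody against the left-handed Z-form) or control IgG. There were 4 total RNA, 4 J2 and 4 Z22 libraries, 1 for each treatment, and 1 IgG library. The labels give no dose for the combination. The regimen described for it was 5-AZA-CdR at 1 µM for 72 h and after it ADAR1i-124 at 10 µM for 12 h, but a combination with less ADAR1i-124 was also used, and the labels do not say which these libraries received. How the cells used for the IgG control had been treated is not given in the sources used here. RNA for precipitation was treated with DNase and with an RNase that cuts single strands, and all libraries were made with a kit that removes rRNA, so the rRNA counts are what was left after that step. No condition has a second library.

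The mitochondrial genome is transcribed from both strands into long precursors that are cut mainly at the tRNAs lying between the other genes. The heavy-strand precursor holds both rRNAs and nearly all mRNAs. The light-strand precursor holds mt-Nd6 and a few tRNAs, is antisense to most of the genome, and is normally degraded quickly. Where the strands meet they can pair, and mitochondrial double-stranded RNA is known as a ligand of the cytosolic sensor MDA5.

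The following sequences show that geometry and were read from the RefSeq copy of GRCm38. The genes mt-Nd5 (heavy strand) and mt-Nd6 (light strand), which both encode subunits of respiratory complex I, run towards each other and share their last 14 bases, positions 13552 to 13565. The shared bases are in capitals, first on the mt-Nd5 strand and then on the mt-Nd6 strand, for chrM:13528-13589.
mt-Nd5 strand: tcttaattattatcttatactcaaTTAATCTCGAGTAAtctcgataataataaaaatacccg
mt-Nd6 strand: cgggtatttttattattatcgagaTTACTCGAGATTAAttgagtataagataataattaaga
The first 60 bases of mt-Nd6, chrM:14011-14070 on the reverse strand, have the start codon in capitals.
mt-Nd6 start: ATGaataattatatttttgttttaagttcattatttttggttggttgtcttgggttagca
Of the tRNA genes, 4 are shown, in lower case throughout: the 3 with at least 3 counts in all 12 libraries and mt-Ta, which had the largest difference between Z22 and J2. They are mt-Tq for glutamine (chrM:3772-3842, reverse), mt-Ta for alanine (chrM:5018-5086, reverse), mt-Tp for proline (chrM:15356-15422, reverse) and mt-Tw for tryptophan (chrM:4950-5016, forward).
mt-Tq: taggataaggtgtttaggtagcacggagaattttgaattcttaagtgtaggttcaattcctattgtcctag
mt-Ta: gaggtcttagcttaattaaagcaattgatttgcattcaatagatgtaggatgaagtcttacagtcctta
mt-Tp: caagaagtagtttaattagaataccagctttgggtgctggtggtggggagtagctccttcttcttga
mt-Tw: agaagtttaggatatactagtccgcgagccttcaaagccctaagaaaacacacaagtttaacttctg

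The authors' counts summed to between 8167960 and 34571822 per library in the 12 libraries compared here. The total RNA library of the combination summed to 1245894, and its counts followed the strand opposite to the genes. Its Spearman correlation across genes with the other libraries was 0.351 to 0.370, against 0.854 to 0.917 among the 12, so it was left out except where antisense counts are described. The Z22 library of DMSO also stood apart: 34.9% of its counts lay on a single gene, Gm42418, which overlaps a nuclear rRNA repeat, against 10.6% to 18.9% in the other precipitated libraries. The main comparisons that rest on it are given with and without it. Of 7 melanocyte markers, Mitf was at 9.68 to 33.1 CPM (the library's counts scaled to 1000000), Tyr and Tyrp1 were at 0 in all 12 libraries, and Sox10, Mlana and Dct had at most 2 counts and Pmel at most 15, so markers of pigment production were at or near 0. The 3 endothelial markers summed to 4.06 CPM in total RNA with DMSO, 18.4 with ADAR1i-124 and 83.0 with 5-AZA-CdR, nearly all from Cdh5. The 6 leukocyte markers reached 4.08 CPM in the 5-AZA-CdR library of total RNA and 0.49 or less elsewhere, and 3 keratinocyte markers had at most 1 count each. The part of these in the results below was not tested.

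A set of 3 light-strand tRNA genes inside heavy-strand transcripts served as a check of strand: mt-Tn, mt-Tc and mt-Ts1 had at most 3 counts in any of the 12 libraries, and 283, 473 and 436 in the left-out library, which is far shallower. These are the 3 lowest of the 8 light-strand tRNA genes and were chosen with their counts known. Of the others, mt-Te and mt-Ty had at most 10 counts, mt-Ta at most 29, and mt-Tq and mt-Tp 4 to 163 and 18 to 117, where counts of their own strand and carry-over from heavy-strand RNA cannot be told apart. Carry-over onto mt-Nd6 itself was not measured.

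Mitochondrial transcripts took a larger share of the counts in 8 of the 9 precipitated libraries than in total RNA. In those 8 the excess lay on the rRNA genes, and it was also present with IgG. The exception was the Z22 library of DMSO. The share was 1.95% in the DMSO, 2.26% in the ADAR1i-124 and 2.23% in the 5-AZA-CdR library of total RNA. With J2 it was 6.88% (DMSO), 6.74% (ADAR1i-124), 6.52% (5-AZA-CdR) and 7.25% (combination), and with Z22 it was 1.67%, 4.94%, 5.27% and 5.93% in the same order. The IgG library had 6.30%, just below the 4 J2 libraries and above the 4 Z22 libraries. The widest 95% Wilson interval of these shares, that of the 5-AZA-CdR library with Z22, ran from 5.26% to 5.29%, which covers counting error only. In bulk RNA, fewer cells of a kind and less RNA per cell cannot be told apart. The J2 share was above the Z22 share for 4 of 4 treatments, by 2.39 percentage points on average (exact paired permutation test, two-sided, p = 0.13, the smallest that 4 pairs allow). Without the DMSO pair the difference was 1.45 points, in 3 of 3 pairs (p = 0.25 by the same exact test, the smallest possible).

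Leaving out the rRNA genes turned the order round. Coding and tRNA genes together took 1.70%, 2.10% and 2.12% of the counts in total RNA, but 1.20%, 1.38%, 0.781% and 1.18% with J2, 0.186%, 0.943%, 1.20% and 0.843% with Z22 (treatments in the order above), and 0.891% with IgG. On this measure all 8 antibody libraries lay below all 3 total RNA libraries, and J2 was above Z22 for 3 of 4 treatments (mean difference 0.343 points, exact paired permutation test, two-sided, p = 0.375). Without the DMSO pair the difference was 0.121 points, in 2 of 3 pairs (p = 0.75 by the same exact test). The bar plot of shares shows the rRNA block that separates the precipitated libraries from total RNA.

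**Figure D1:**
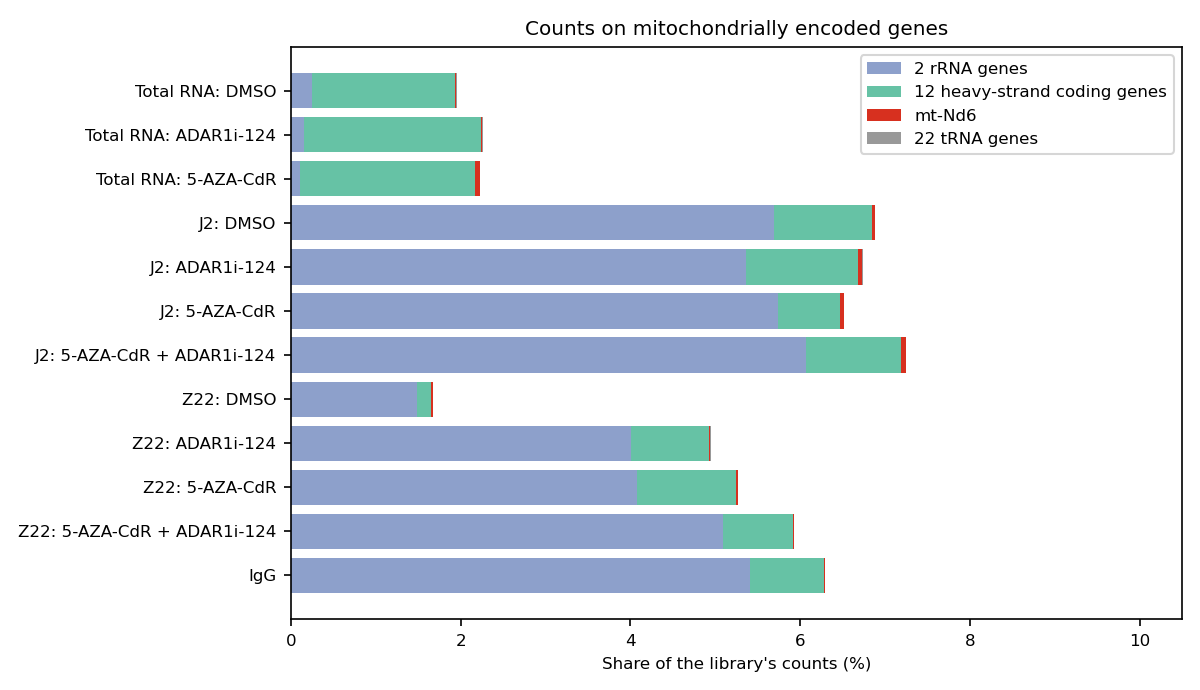
Share of each library's counts (%, x axis) on mitochondrially encoded genes in the 12 libraries, split into 2 rRNA genes, 12 heavy-strand coding genes, mt-Nd6 and 22 tRNA genes. rRNA makes up 0.251% or less of each total RNA library and 5.36% to 6.06% of each J2 library. The DMSO library with Z22 is the only precipitated library whose whole bar (1.67%) is near the total RNA level, and rRNA makes up 1.49% of that library. The tRNA segment, at most 0.0071%, is too thin to see.

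Levels between genes were compared as CPM per kb of gene length. In total RNA the most abundant mitochondrial mRNA was mt-Co1, the catalytic subunit of cytochrome c oxidase, at 5588 (DMSO), 6895 (ADAR1i-124) and 8115 (5-AZA-CdR) CPM per kb, above every other gene in all 3 libraries. mt-Nd1, a core subunit of complex I, followed at 1837 to 2810, and mt-Cytb, the cytochrome b of complex III, at 1547 to 2291, ranges that overlap. mt-Nd2, also of complex I, stood at 1065 to 1416. Below them mt-Nd5 (699 to 963) and mt-Nd4 (667 to 899.5), both of complex I, overlapped each other, and the light-strand mt-Nd6 was at 329 and 350 with DMSO and ADAR1i-124 but at 1026 with 5-AZA-CdR. The 6 genes between mt-Co1 and mt-Nd4 were the lowest of the coding genes. These are mt-Co2 and mt-Co3 of cytochrome c oxidase, mt-Atp8 and mt-Atp6 of the ATP synthase, and mt-Nd3 and mt-Nd4l of complex I.

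Those 6 genes are also the ones that lie wholly inside a near-identical nuclear copy of the mitochondrial genome, and their counts are uncertain. A segment of chromosome 1 on the reverse strand, chr1:24611535-24616188 in GRCm38, holds mitochondrial positions 6390 to 11042 at 99.9% identity, with 2 mismatches and 1 inserted base. It covers 100% of these 6 genes, 63.6% of mt-Nd4 and 31.3% of mt-Co1. Less similar long copies lie on chromosome 2 (positions 4441 to 7699, 97.4% identity, all of mt-Co1) and chromosome 4 (positions 12488 to 15359, 93.0% identity, all of mt-Nd6 and mt-Cytb). No stretch of 150 bases of mt-Nd6, mt-Cytb or mt-Nd5 had an identical nuclear match. In the DMSO library of total RNA the 6 genes inside the copy ranged from 73.4 to 274 CPM per kb (median 147), and the 6 heavy-strand coding genes wholly or partly outside it from 667 to 5588 (median 1317). Groups did not overlap in any of the 12 libraries. Reads that match both places equally can be lost or split by a counter that keeps unique matches, and how such reads were counted is not given in the sources used here. The 7 annotated pseudogenes of the copy (such as Gm10925 and Gm29216) together had 971 to 49081 counts per library. The differences between the copies in the reference are shown because a read wholly inside the copy could be assigned by them alone. A read that reaches past an end of the copy also carries flanking sequence. The cells' own mitochondrial sequence was not examined. A capital marks the base that differs: A6393T in mt-Co1 and T9461C in mt-Nd3, with positions counted along chromosome M and the mitochondrial base first, and an extra base in the copy opposite mt-Tr.
mt-Co1, chrM:6390-6413: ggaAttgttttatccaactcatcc
its copy, chr1:24616165-24616188, reverse: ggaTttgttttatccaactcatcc
mt-Nd3, chrM:9441-9481: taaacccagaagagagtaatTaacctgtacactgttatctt
its copy, chr1:24613097-24613137, reverse: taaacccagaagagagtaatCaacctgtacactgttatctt
mt-Tr, chrM:9809-9848: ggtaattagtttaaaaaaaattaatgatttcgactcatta
its copy, chr1:24612729-24612769, reverse: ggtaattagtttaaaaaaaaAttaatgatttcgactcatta

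**Figure D2:**
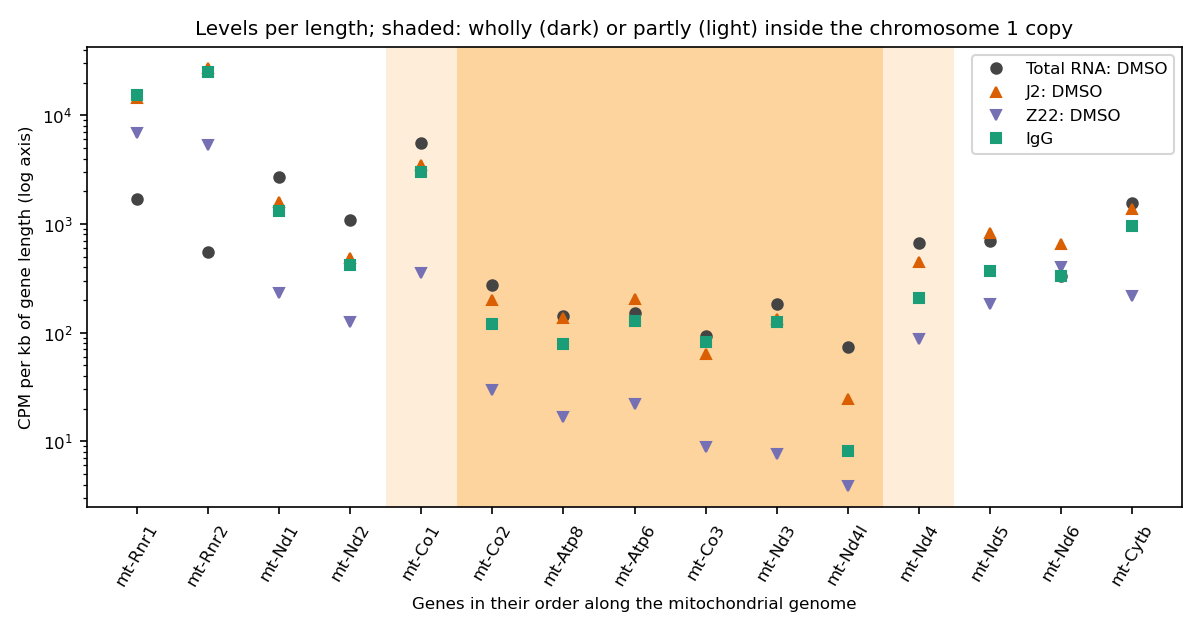
CPM per kb of gene length (y axis, log scale) of the 13 coding and 2 rRNA genes in their order along the mitochondrial genome, in the DMSO libraries of total RNA, J2 and Z22 and in the IgG library. The 6 genes wholly inside the chromosome 1 copy (dark shading) lie below the 6 other heavy-strand coding genes in each of these libraries.

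Relative to the heavy-strand mRNAs, mt-Nd6 was more abundant in J2-precipitated RNA than in total RNA of DMSO- or ADAR1i-124-treated cells, and also more than in IgG. The measure is mt-Nd6 counts per kb as a percentage of the mean counts per kb of the 12 heavy-strand coding genes, a ratio within a library that no scaling between libraries can change. It was 29.9% (DMSO), 26.3% (ADAR1i-124) and 79.8% (5-AZA-CdR) in total RNA. With J2 it was 86.7% (DMSO), 101% (ADAR1i-124), 198% (5-AZA-CdR) and 145% (combination), all above the 57.8% of IgG. With Z22 it was 49.3%, 51.4% and 53.3% for ADAR1i-124, 5-AZA-CdR and the combination, just below IgG, and 371% for DMSO, the library that stood apart. The J2 libraries do not overlap the other 3 Z22 libraries, IgG or total RNA, and the Z22 library of DMSO lies above them all.

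Over the 4 treatments the log2 ratio was higher with J2 than with Z22 by 0.58 on average, in 3 of 4 pairs (exact paired permutation test, two-sided, p = 0.625, where 0.13 is the smallest possible). Without the DMSO pair the mean difference was 1.48, in 3 of 3 pairs (p = 0.25 by the same exact test, the smallest that 3 pairs allow). Leaving out ADAR1i-124, 5-AZA-CdR or the combination instead gave 0.43, 0.13 and 0.30, each in 2 of 3 pairs. Against only its neighbours mt-Nd5 and mt-Cytb, which lie outside the chromosome 1 copy, mt-Nd6 stood at 59.4%, 61.2%, 149% and 89.0% with J2, 49.5% with IgG, and 29.3%, 21.5% and 83.6% in total RNA, with treatments in the same order. With Z22 it stood at 199% (DMSO), 33.4%, 37.6% and 42.6%, so the DMSO library again lay above all others. The mean log2 difference between J2 and Z22 was 0.55, in 3 of 4 pairs (exact paired permutation test, two-sided, p = 0.5). It was 1.31 without DMSO, in 3 of 3 pairs. It was 0.44 without ADAR1i-124, 0.064 without 5-AZA-CdR and 0.37 without the combination, each in 2 of 3 pairs. On that measure the 5-AZA-CdR library of total RNA lay above the DMSO and ADAR1i-124 libraries with J2.

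**Figure D3:**
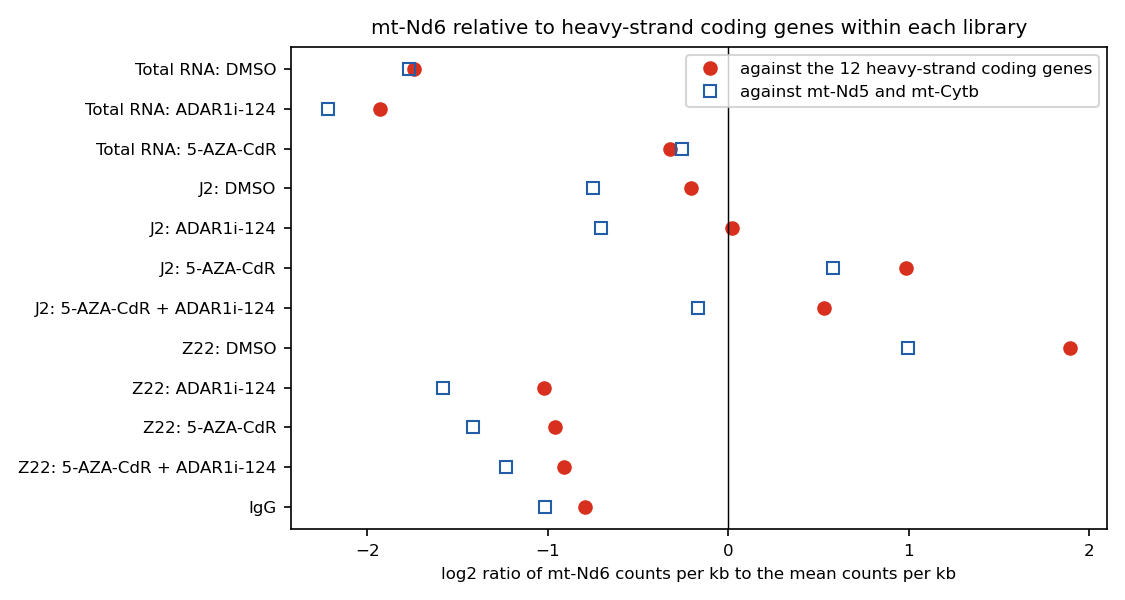
log2 of mt-Nd6 counts per kb over the mean counts per kb (x axis) of the 12 heavy-strand coding genes (filled circles) or of mt-Nd5 and mt-Cytb (open squares), 1 point per library. The J2 libraries lie at -0.21 to 0.99 for the circles and IgG at -0.79, with the DMSO library of Z22 farthest right at 1.89.

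Enrichment by an antibody is given as the log2 ratio to control IgG, computed from CPM with 0.5 CPM added. With J2, the adjacent genes mt-Nd4l, mt-Nd4, mt-Nd5 and mt-Nd6 had the highest ratios of the coding genes with DMSO and with the combination, while the rRNAs stayed near the IgG level. mt-Nd6 measured 337 CPM (DMSO), 478 (ADAR1i-124), 487 (5-AZA-CdR) and 542 (combination) with J2 against 171 with IgG. All 4 J2 values are above IgG, as log2 ratios of 0.98, 1.48, 1.51 and 1.66, or 1.97-fold to 3.17-fold. The 95% counting interval of the DMSO value ran from 0.91 to 1.05, and those of the other 3 began at 1.42 or higher. All ratios for J2 and Z22 share the 1 IgG library, whose own error enters each of them.

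mt-Nd5 was at 1512, 2572, 958 and 2366 CPM with J2, in the same order of treatments, and at 666 with IgG. Its log2 ratios were 1.18, 1.95, 0.52 and 1.83. mt-Nd4l had ratios of 1.42, 1.41, 0.96 and 1.13, from 69 to 104 counts against 37 with IgG, and mt-Nd4 of 1.10, 1.39, 0.29 and 0.97. mt-Nd3 was 4.30-fold above IgG with ADAR1i-124 (189 against 43.7 CPM) but within 1.75-fold of it in the other 3 J2 libraries. mt-Nd2 passed 2-fold with ADAR1i-124 alone (1.16), and mt-Nd1 stood just under the line there at 0.99.

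The rRNA genes showed no such excess: mt-Rnr1, the 12S rRNA, ranged from -0.33 to 0.00 and mt-Rnr2, the 16S rRNA, from 0.09 to 0.22. mt-Co1 (-0.39 to 0.22), mt-Co3 (-0.38 to 0.06), mt-Co2 (0.02 to 0.73), mt-Atp8 (0.28 to 0.78), mt-Atp6 (-0.11 to 0.65) and mt-Cytb (-0.40 to 0.72) stayed under 2-fold in all 4. Of the 15 coding and rRNA genes, 3 (DMSO), 6 (ADAR1i-124), 1 (5-AZA-CdR) and 3 (combination) were at least 2-fold higher with J2 and none was at least 2-fold lower. Over all genes averaging 1 CPM or more, 13.5%, 5.63%, 13.0% and 17.9% were at least 2-fold higher in these comparisons, and 8.97%, 4.46%, 5.57% and 7.98% lower. The median ratio of the 15 genes was 0.49, 0.72, -0.03 and 0.28, against medians of all genes of -0.00, -0.01, 0.05 and 0.13. The 6 of 15 with ADAR1i-124 stand above their background of 5.63%, and the counts of 3, 1 and 3 are within about 1 gene of theirs.

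With Z22, few mitochondrial genes were 2-fold above IgG, though 9 of the 15 with ADAR1i-124 and 12 with 5-AZA-CdR lay above it. mt-Nd6 was at 207, 162, 205 and 148 CPM against 171, with log2 ratios of 0.27, -0.08, 0.26 and -0.21. In the ADAR1i-124, 5-AZA-CdR and combination libraries, 1, 2 and 0 of the 15 genes were at least 2-fold higher (mt-Nd4l with ADAR1i-124, mt-Nd4l and mt-Nd4 with 5-AZA-CdR) and none lower, where 7.15%, 21.4% and 17.0% of all genes were higher and 1.85%, 5.13% and 10.7% lower. In the DMSO library 12 of 15 were at least 2-fold lower, from -1.19 for mt-Rnr1 to -3.82 for mt-Nd3, beside 45.4% of all genes, whose median there was -0.83. The exceptions were mt-Nd4l (-0.82), mt-Nd5 (just under 2-fold) and mt-Nd6. With DESeq2's size factors, which lower that library's scaling total, mt-Nd6 in it stood at 1.08.

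**Figure D4:**
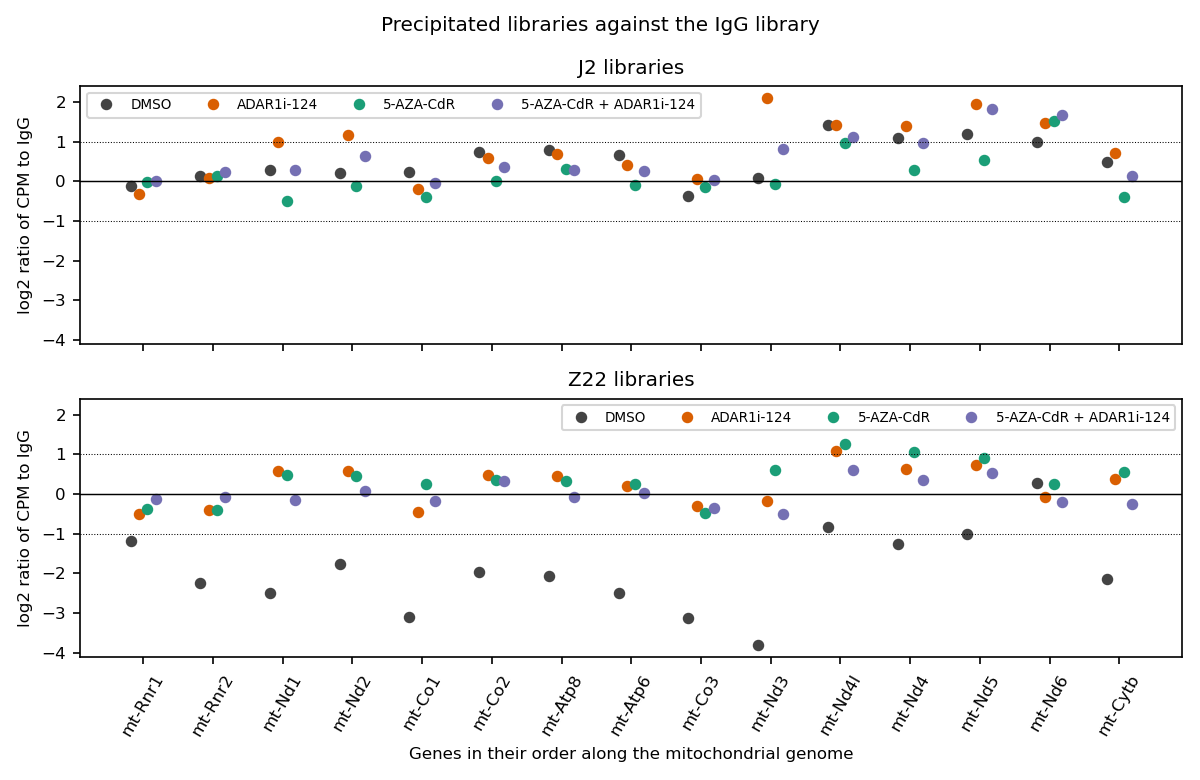
log2 of CPM over CPM in IgG (y axis) for the 13 coding and 2 rRNA genes in genome order, J2 libraries above and Z22 libraries below, coloured by treatment, with dotted lines at 2-fold. With J2, mt-Nd6 lies at 0.98 to 1.66 and both rRNA genes near 0, and with Z22 the DMSO library lies below the other 3 for each gene except mt-Nd6.

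Within each treatment, the rRNA genes were the ones far above total RNA. As log2 ratios to total RNA of cells treated alike (DMSO, ADAR1i-124, 5-AZA-CdR), mt-Rnr2 stood at 5.62, 5.39 and 6.85 with J2 and at 3.25, 4.89 and 6.31 with Z22, and mt-Rnr1 at 3.07, 4.34 and 4.28 with J2 and at 2.0, 4.16 and 3.92 with Z22. mt-Nd6 was higher with J2 for DMSO (0.98) and ADAR1i-124 (1.39) but not for 5-AZA-CdR (-0.13), and with Z22 it stood at 0.27, -0.17 and -1.37. At least 2-fold higher with J2 were 2, 5 and 2 of the 15 coding and rRNA genes, beside 5.56%, 5.04% and 4.94% of all genes. Besides the rRNAs these were mt-Nd6, mt-Nd3 (3.18) and mt-Atp8 (1.63) with ADAR1i-124, both of the latter inside the chromosome 1 copy. With the counts of the copy added, mt-Nd3 stood at 1.41. At least 2-fold lower were 2, 2 and 7, beside 17.3%, 14.7% and 18.9%. mt-Nd4l was among them in all 3 (-1.51, -2.29 and -2.86), and mt-Co1 in 2 (-1.38 with ADAR1i-124 and -1.82 with 5-AZA-CdR). mt-Nd4l also lies inside the copy, whose counts are not added to these values. It had 371, 659 and 1409 counts in total RNA and 89, 104 and 69 with J2. Its pseudogene Gm10222 had 235, 461 and 1156 in total RNA and 141, 163 and 101 with J2. With Z22, 2, 3 and 2 genes were higher, beside 6.61%, 4.68% and 7.01% of all genes, and 12, 5 and 5 were lower, beside 54.6%, 11.8% and 14.2%. The medians of all genes in these comparisons were -0.36, -0.30 and -0.37 with J2 and -1.18, -0.30 and -0.20 with Z22.

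Total RNA was compared with the precipitated fractions in a fit across all genes (edgeR's quasi-likelihood test on 11 libraries, treatment as a block, Benjamini-Hochberg adjustment over 15845 genes tested). Its spread is that of the treatments around a common difference, not of repeat cultures. Of the 37 members, 23 had enough counts to be tested. With J2, both rRNA genes were higher than in total RNA and nothing else among the members passed. mt-Rnr2 had 43150, 41827 and 42867 CPM with J2 (DMSO, ADAR1i-124, 5-AZA-CdR) against 878, 998 and 370 in total RNA, a log2 difference of 5.78 ± 0.63 (SE, adjusted p = 0.00571). mt-Rnr1 had 13729, 11786 and 14537 CPM against 1629, 583 and 750 (3.78 ± 0.46, adjusted p = 0.0107). These 2 of 23 compare with 0.12% of all genes called higher and 0.0189% called lower. IgG, which is outside the fit, had 39231 CPM of mt-Rnr2 and 14827 of mt-Rnr1, the latter as high as with J2 and the former below the J2 values by at most 0.22 on the log2 scale.

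With Z22 the same rRNA genes were higher than in total RNA, mt-Rnr2 by 4.96 ± 0.62 (adjusted p = 0.0105) and mt-Rnr1 by 3.39 ± 0.46 (adjusted p = 0.0178), and mt-Nd4l was lower by 2.98 (log2 difference -2.98 ± 0.47, adjusted p = 0.0441). Without the Z22 library of DMSO these were 5.49, 3.81 and -2.59, all called (adjusted p = 0.00909, 0.0130 and 0.0210). All genes called higher came to 0.12% and lower to 0.0694% in this comparison. mt-Nd4l fell from 21.8, 37.4 and 40.8 CPM in total RNA to 1.15, 5.66 and 6.49 with Z22, and lay at 7.30, 7.22 and 5.19 with J2 (-2.25 ± 0.46, adjusted p = 0.112) and 2.41 with IgG. Counts of the chromosome 1 copy, inside which mt-Nd4l lies, were not added in the fit. mt-Nd6 differed from total RNA by 0.80 ± 0.37 with J2 (adjusted p = 0.321) and by -0.54 ± 0.36 with Z22 (adjusted p = 0.324), neither called. The median member differed by 0.13 with J2 and -0.96 with Z22, against -0.38 and -0.54 over all genes. Without the Z22 library of DMSO the Z22 median was -0.49, against -0.30. Leaving out the ADAR1i-124 or the 5-AZA-CdR libraries removed every one of these calls (mt-Rnr2 with J2 then had 5.94, adjusted p = 0.147, or 5.36, adjusted p = 0.0512). Leaving out the combination removed mt-Rnr1 (adjusted p = 0.0580) and mt-Nd4l (adjusted p = 0.184) with Z22. Without the DMSO libraries 10 members were called with J2, 7 higher (the rRNA genes and mt-Tq, mt-Tm, mt-Tw, mt-Ti and mt-Tp) and 3 lower (mt-Co1, mt-Co3 and mt-Nd4l), beside 577 higher and 2556 lower of 16386 genes.

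Z22 was then compared with J2 over all 4 treatments in the same fit. All 23 tested members were lower with Z22, with a median log2 difference of -0.82 beside -0.19 over all genes. Without the Z22 library of DMSO 19 of 23 were lower, with a median of -0.40 beside 0.01 over all genes. None of the members passed the test with all libraries, and no gene of the 15845 did (0.0% called). At an unadjusted p under 0.05 there were 9 members and 1343 genes. DESeq2's Wald test called 5 members, all lower, of 161 genes. The differences of coding genes ran from -0.44 ± 0.53 for mt-Nd1 to -1.44 ± 0.82 for mt-Nd3. Without the Z22 library of DMSO, mt-Nd1 (0.078), mt-Co2 (0.026) and mt-Cytb (0.015) turned direction. mt-Nd6 differed by -1.34 ± 0.33 (adjusted p = 0.374 in edgeR, 0.0275 in DESeq2; -1.61 without that library), and all 4 of its J2 values, given above, exceed all 4 of its Z22 values. Scaled by DESeq2's size factors, though, the Z22 library of DMSO had 383 CPM of mt-Nd6 and that of J2 343. mt-Nd5, by contrast, overlapped: its 958 CPM with 5-AZA-CdR and J2 lay below the 1114, 1255 and 968 of the treated Z22 libraries.

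The largest differences between Z22 and J2 were on tRNA genes. mt-Ta had 11, 18, 16 and 12 counts with J2 and 0, 1, 1 and 1 with Z22 (log2 difference -3.78 ± 0.63, adjusted p = 0.374). mt-Tw, the most abundant tRNA gene, had 51.2, 24.7, 14.3 and 19.97 CPM with J2 against 1.37, 5.05, 5.75 and 4.15 with Z22 (-2.57 ± 0.54, adjusted p = 0.374), and mt-Tq had 6.48, 11.3, 4.81 and 6.20 against 0.458, 2.18, 1.84 and 1.42 (-2.33 ± 0.44, adjusted p = 0.374). mt-Tm, for methionine, was at 4.76, 6.32, 4.44 and 2.63 CPM with J2 and 0, 1.43, 1.22 and 0.875 with Z22 (-2.33 ± 0.69, adjusted p = 0.442). These genes are given for the size of their differences in the same data, and the share of all genes whose groups separate likewise was not counted. With Z22, mt-Ta had at most 1 count and mt-Tm at most 21. Groups did not overlap for any of these 4 genes. IgG lay between them for mt-Tw at 9.20 CPM, within the Z22 values for mt-Tq at 1.83, between them again for mt-Tm at 1.96, and just under the lowest J2 value for mt-Ta at 0.848. Without the Z22 library of DMSO the differences were -3.52 for mt-Ta, -2.03 for mt-Tw, -2.01 for mt-Tq and -1.78 for mt-Tm. DESeq2 called all 4, and without the DMSO libraries edgeR called mt-Tw alone (-1.97, adjusted p = 0.0472).

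Of the other tRNA genes, mt-Tp had 18 to 117 counts in the 12 libraries, and like mt-Tw and mt-Tq reached 3 counts in all of them. It stood at 3.69 to 8.12 CPM with J2, 2.06 to 3.55 with Z22 and 6.13 with IgG, so the J2 libraries lay on both sides of IgG. mt-Tm reached 3 counts in 11 libraries. Another 3 heavy-strand tRNA genes were at 0 in all 12 libraries, and 7 of the 22 stayed under 3 counts in each. In the shallowest library a count of 0 allows up to 0.367 CPM. The library kit is not one for short RNA, and these counts cannot tell a mature tRNA from a longer transcript that crosses the gene.

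The treatments left most coding and rRNA genes within 2-fold of DMSO in total RNA. Among those of them outside the nuclear copy, mt-Nd6 with 5-AZA-CdR differed most. mt-Nd6 had 171 CPM with DMSO, 182 with ADAR1i-124 and 532 with 5-AZA-CdR, a log2 ratio to DMSO of 0.09 and 1.64. Its strand partner mt-Nd5 went from 1276 to 1608 CPM with 5-AZA-CdR (0.33), and mt-Cytb from 1770 to 1800 (0.02). In the same library mt-Co3 was at 1.05, just past 2-fold, without the counts of the nuclear copy that holds it. Its pseudogene Gm28437 had 2295 counts with DMSO and 8423 in the deeper 5-AZA-CdR library, beside 1237 and 5218 on mt-Co3. Both rRNAs fell by more than 2-fold with 5-AZA-CdR, mt-Rnr1 to -1.12 and mt-Rnr2 to -1.24. Thus 2 of 15 genes were at least 2-fold higher and 2 lower, beside 17.0% and 8.96% of all genes.

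With ADAR1i-124, no member of the 15 was at least 2-fold higher in total RNA and 3 were lower, beside 7.71% and 8.7% of all genes. mt-Rnr1 was at 583 against 1629 CPM (-1.48), mt-Atp8 at 8.06 against 29.0 (-1.79) and mt-Nd3 at 20.4 against 63.5 (-1.62). Among the tRNA genes, mt-Tt, for threonine, had 72 counts with DMSO, 14 with ADAR1i-124 (log2 ratio -1.87) and 55 in the deeper 5-AZA-CdR library (-1.18). The value of mt-Nd3 depends on the nuclear copy: the mt-Nd3 pseudogene Gm28438 had 481 counts with DMSO and 1346 with ADAR1i-124 while mt-Nd3 had 1080 and 359, and with the counts of both places added the log2 ratio was 0.08.

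With J2 the treatments left most mitochondrial genes within 2-fold of DMSO. mt-Nd6 was higher by 0.50, 0.53 and 0.68 in log2 with ADAR1i-124, 5-AZA-CdR and the combination. mt-Nd3 with ADAR1i-124 was the 1 value of 45 past 2-fold (2.02, 189 against 46.5 CPM), where 7.37%, 8.61% and 8.21% of all genes were higher in the 3 comparisons and 10.8%, 6.0% and 3.88% lower. mt-Rnr1 and mt-Rnr2 stayed between -0.22 and 0.11.

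With Z22, 13 (ADAR1i-124), 13 (5-AZA-CdR) and 14 (combination) of the 15 genes were at least 2-fold above DMSO, but so were 42.9%, 52.1% and 43.4% of all genes, whose median rose by 0.81, 1.06 and 0.82. None of the 15 was at least 2-fold lower, beside 5.13%, 4.1% and 5.03%. The 15 genes had medians of 2.46, 2.33 and 1.99. mt-Nd6 alone was not higher, at -0.35, -0.01 and -0.48, and at -1.21, -1.08 and -1.34 with DESeq2's size factors. All 3 comparisons share the DMSO library that stood apart. The treatment comparisons within each fraction share their DMSO library, so their values are not independent of each other.

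**Figure D5:**
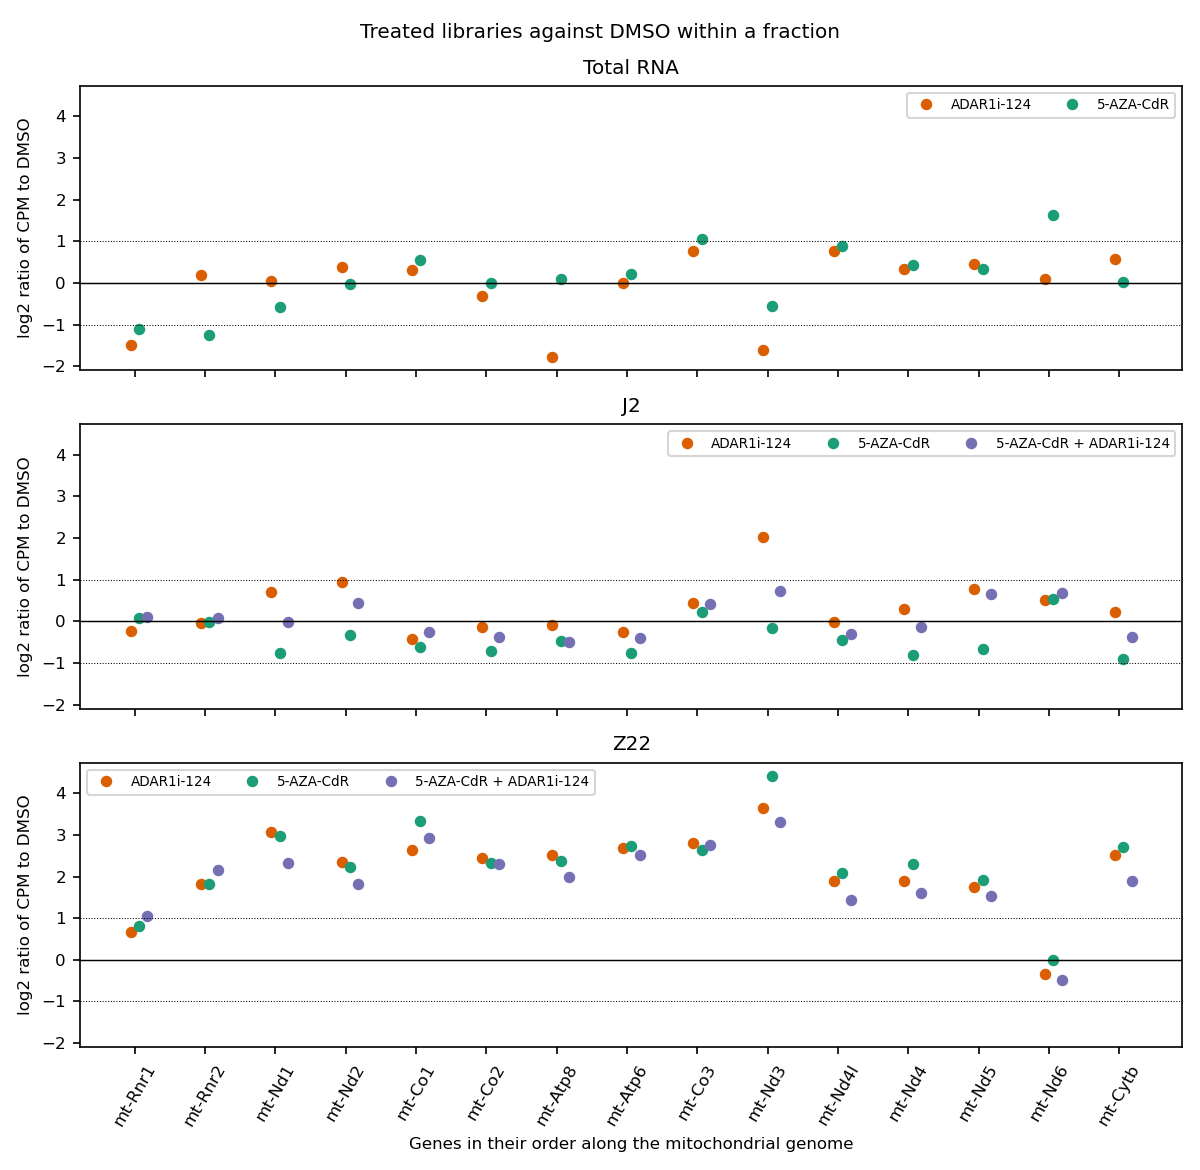
log2 ratio of CPM to the DMSO library of the same fraction (y axis) for the 13 coding and 2 rRNA genes in genome order, for total RNA, J2 and Z22, coloured by treatment, with dotted lines at 2-fold. In total RNA mt-Nd6 stands at 1.64 with 5-AZA-CdR, with J2 only mt-Nd3 with ADAR1i-124 (2.02) passes a line, and with Z22 mt-Nd6 stays at or below 0 while all others lie above 0.

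Counts in the left-out total RNA library of the combination show what lay opposite each gene. Of its 10818 member counts, 6775 fell on mt-Nd5 alone, which is light-strand RNA antisense to mt-Nd5, next to the end of mt-Nd6. Per length this was 3714 counts per kb, against 300.4 over mt-Nd4 and 933 over mt-Nd6, the latter being heavy-strand RNA antisense to mt-Nd6. The light-strand tRNA genes mt-Tp, mt-Tc, mt-Ts1 and mt-Tn stood higher still, at 7985, 7167, 6319 and 3986 counts per kb. The 8 light-strand tRNA genes had 1986 counts, from 39 (mt-Te) to 535 (mt-Tp), where the deeper DMSO library of total RNA had 139, and these lie in heavy-strand RNA antisense to the tRNAs. The 14 heavy-strand tRNA genes had 82 counts, and the rRNA genes 17, against 42655 in the DMSO library. Antisense counts were thus uneven along the genome, high over mt-Nd5 and some light-strand tRNA genes and near 0 over the rRNA genes. The library holds 1 treatment and 1 preparation and has no control of its own kind.

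The nuclear genes of the same machinery were followed as a comparison. On all libraries of the fit, edgeR with library totals and the filter called none of 77 tested nuclear-encoded subunits of the respiratory complexes (of 80 listed). It also called none of 21 tested mitochondrial RNA-handling factors, in any of the 3 fitted comparisons. With TMM, with DESeq2 size factors, with totals lacking the 20 highest genes or with no filter, edgeR called 2 subunits higher in each comparison with total RNA, and with no filter also 5 subunits and 2 factors lower for Z22 against total RNA. Of all genes, these fits called 37, 41, 41 and 131 higher with J2 and 60, 91, 76 and 239 higher with Z22, in that order. With no filter, 1984 of 33781 genes were lower with Z22. DESeq2's Wald test called none for Z22 against J2, 3 subunits higher and 1 lower for J2 against total RNA, and 3 higher and 4 lower with 2 factors lower for Z22 against total RNA. Of all 15845 genes it called 86 higher and 75 lower, 145 higher and 600 lower, and 299 higher and 2198 lower in these comparisons. Without the DMSO libraries edgeR called 20 subunits higher and 2 lower, with 1 factor higher, for J2 against total RNA, and 16 higher and 4 lower, with 1 factor lower, for Z22 against total RNA. Over all 16386 genes these fits called 577 higher and 2556 lower, and 525 higher and 2180 lower. Without the Z22 library of DMSO alone, edgeR called 7 subunits higher and 2 lower for J2 against total RNA, and 5 higher and 1 lower for Z22 against total RNA. Of all 15935 genes it then called 201 higher and 1246 lower, and 133 higher and 678 lower. At an unadjusted p under 0.05 there were 0, 12 and 9 subunits and 0, 2 and 4 factors for Z22 against J2, J2 against total RNA and Z22 against total RNA, beside 1343, 2546 and 4529 of all 15845 genes. For Z22 against J2 their medians were -0.36 and -0.42 beside -0.19 over all genes, and -0.038 and -0.040 beside 0.01 without the Z22 library of DMSO. The lowest subunits were Atp5l (-0.74 ± 0.50) and Ndufb4 (-0.73 ± 0.63), of ATP synthase and complex I, and the highest were Ndufv3 (0.27 ± 0.30) and Ndufb10 (0.25 ± 0.29), of complex I. Among the factors Tefm, a transcription elongation factor of mitochondria, was lowest (-0.83 ± 0.53) with Tfb2m (-0.71 ± 0.45), an initiation factor, and Polrmt, the mitochondrial RNA polymerase, was highest (0.53 ± 0.29) with the tRNA-processing nuclease Elac2 (0.49 ± 0.30). Against IgG, 0 of 76 subunits averaging 1 CPM or more were 2-fold higher with J2 in any treatment, beside 13.5%, 5.63%, 13.0% and 17.9% of all genes. With J2, 22 (DMSO), 8 (ADAR1i-124), 8 (5-AZA-CdR) and 34 (combination) were lower, beside 8.97%, 4.46%, 5.57% and 7.98% of all genes. With Z22 also 0 were higher, beside 11.3%, 7.15%, 21.4% and 17.0%, and 64, 7, 21 and 36 were lower, beside 45.4%, 1.85%, 5.13% and 10.7%.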

How the data were processed

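Per the labels and the study's methods, the authors made rRNA-depleted libraries, sequenced paired 150-base reads, mapped them with STAR in snakePipes 2.8.0 to mm10 (GRCm38) with GENCODE release 19, and deposited raw counts per gene without normalization. The counting tool, its strand setting and its treatment of reads with several matches are not given in the sources used here. Ensembl identifiers, with their version removed, were matched to those of GENCODE M21, which gave 54495 of 54532 genes a symbol.

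CPM are counts divided by the library's total. Log2 ratios add 0.5 CPM and are read for genes averaging 1 CPM or more in the libraries compared. The floor of detection is 3 counts, and 95% intervals cover counting error only, since reads carry no molecular identifiers. Fits used edgeR 4.0.16 (library totals as offsets, filterByExpr, treatment as block, threshold 0.05 on the adjusted p), with DESeq2 1.42.0 as an alternative, in R 4.3.3. The code was run on simulated counts for Z22 against J2 alone, with a fixed spread, no treatment effects and no outlying library. That run does not measure how the fits perform on these data. With 1 library per condition, single comparisons have no test. Nuclear copies were found with blastn 2.17.0 at 90% identity or more. Other calculations used Python 3.11.15 with numpy 2.4.6, pandas 2.3.3, scipy 1.17.1 and matplotlib 3.10.9. Sequences come from RefSeq's GRCm38.

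The members, lists and tests were chosen with earlier results of these data known. All coding and rRNA genes are named, with the light-strand tRNA genes, the 4 tRNA genes of highest mean CPM, and the 2 highest and 2 lowest of each nuclear list in the comparison of Z22 with J2. The remaining tRNA genes, pseudogenes, Gm42418 and marker genes were named after their values were seen. Of 23 listed RNA-handling factors, 21 were matched by symbol. Alternatives covered scaling (TMM, DESeq2 size factors, totals without the 20 highest genes), other pseudocounts (0.1 or 2 CPM), no filter on low counts, a line at 4-fold, no block, and leaving out each treatment; the handling of the chromosome 1 copy and of the DMSO library of Z22 was added after seeing the data.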

Additional observations from a re-analysis of the deposited data

Results flagged for a closer look

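Among 36 quantities tested over groups of 4 libraries, 5 had 1 library far from the others by Dixon's criterion. This is the gap to the nearest other library over the range of all 4. All 5 were in the Z22 group and all for its DMSO library. A single quantity passes by chance about 1 in 20 times, but the quantities of a group share the same 4 libraries and their totals. The 5 are therefore not independent, and that rate cannot be set against them. They were the DMSO library's log2 ratio of mt-Nd6 to the heavy-strand coding genes (1.89) and its log2 CPM of mt-Rnr2 (13.03), mt-Co2 (4.38), mt-Atp6 (3.97) and mt-Co3 (2.90). In the same library 34.9% of the counts lay on Gm42418, and the part of that in these values was not tested.

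Changes with ADAR1i-124 past 2-fold ran opposite ways in different fractions for mt-Atp8, at -1.79 in total RNA and 2.51 with Z22, and for mt-Nd3, at -1.62 in total RNA, 2.02 with J2 and 3.65 with Z22. With the counts of the chromosome 1 copy added, mt-Nd3 in total RNA was at 0.077 and no longer opposite. With 5-AZA-CdR, mt-Rnr2 was at -1.24 in total RNA and 1.82 with Z22, where the median of all genes was 1.06. The Z22 value was 0.85 with TMM and 0.74 with DESeq2 size factors, under 2-fold. All Z22 values here are relative to the DMSO library described above. Each value compares 1 library with 1 library, and the differences between fractions were not tested. Both mt-Atp8 and mt-Nd3 lie inside the chromosome 1 copy.

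The total RNA library of the combination, used in no comparison, had 10818 counts on mitochondrial genes, which follow the strand opposite to the genes.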

How the results depend on the processing

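Fitted calls depended on the setting, and the cause was not tested. Members called (all genes in parentheses) for Z22 against J2 were 0 (0) as reported, 5 (161) by DESeq2's Wald test and 9 (163) without the filter, and 0 to 1 (0 to 52) leaving out each treatment. For J2 against total RNA they were 2 (22) as reported, 5 (480) without the filter and 8 (1447) without the Z22 library of DMSO, and 0 to 10 (7 to 3133) leaving out each treatment. All genes called there were 42 with TMM, 45 with DESeq2 size factors, 44 without the 20 highest genes and 745 by the Wald test. For Z22 against total RNA they were 3 (30) as reported, 9 (2497) by the Wald test, 13 (2223) without the filter and 5 (811) without the Z22 library of DMSO, and 0 to 8 (7 to 2705) leaving out each treatment, with 82, 111 and 87 genes under the 3 scalings. Dropping the treatment block kept 2 and 3 members called.

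Fitted differences that changed sign were all of members not called. Leaving out each treatment, Z22 against J2 ranged from -1.02 to 0.027 for mt-Nd1, -1.09 to 0.080 for mt-Co1, -0.77 to 0.055 for mt-Co2 and -1.03 to 0.075 for mt-Cytb. J2 against total RNA ranged from -0.42 to 0.42 for mt-Atp8, -0.14 to 0.15 for mt-Atp6, -0.27 to 1.88 for mt-Nd3 and -0.059 to 0.32 for mt-Nd5, and Z22 against total RNA from -1.37 to 0.21 for mt-Atp8, -1.76 to 0.68 for mt-Nd3 and -0.73 to 0.18 for mt-Tp. Without the Z22 library of DMSO, Z22 against J2 was 0.078 for mt-Nd1, 0.026 for mt-Co2 and 0.015 for mt-Cytb, and Z22 against total RNA 0.10 for mt-Atp8 and 0.20 for mt-Nd3. For Z22 against total RNA, mt-Tp was 0.076 with TMM, 0.20 with DESeq2 size factors and 0.056 without the 20 highest genes, and mt-Nd6 was 0.059 with DESeq2 size factors.

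Of 60 values against IgG, the 13 with J2 at least 2-fold higher became 1 at a 4-fold line, and 12 to 17 under other scalings and pseudocounts. Against total RNA of the same treatment, 11 of 45 J2 values were lower. The 3 with Z22 became 1 with TMM, 1 with 2 CPM, 0 at 4-fold and 7 of 45 against total RNA, and the 12 lower became 0 of 45 without the DMSO library and 22 of 45 against total RNA. Of 120 treatment values, 43 were higher and 5 lower, against 28 and 0 at 4-fold, 8 lower with DESeq2 size factors, and 3 of 75 higher without Z22. With chromosome 1 counts added, mt-Nd3 with ADAR1i-124 in total RNA was 0.077. The share difference (1.45 to 2.77 points) and the mt-Nd6 ratio difference (0.13 to 1.48) kept their sign when each treatment was left out.

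Treatment was the pairing in the fits and in the exact tests, since the labels give no replicate numbers. The design's limits are 1 library per condition, 1 IgG library for all ratios, rRNA removed by the kit before counting, and a mitochondrial copy on chromosome 1 that shares reads with 8 coding genes.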
